A study of Zea mays with 318 samples.

Results

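Maize inbred lines carry names that often record the breeding program that released them. Of the 318 inbred lines profiled in this association panel, 15 have names that begin with DAN (5 lines), LIAO (4 lines), JI (3 lines), DONG (2 lines) or SHEN (1 line) followed by a number, prefixes used in Northeast China, and 5 have names that begin with ZHENG, the prefix used in Henan. These 20 lines were compared by name alone, and all other lines of the panel served as a background. The sample labels give the line name but no place of origin or pedigree, so origin, pedigree and name cannot be told apart here. The 2 sets are called northeast-named and ZHENG lines. The northeast-named lines were DAN3130, DAN340, DAN360, DAN4245, DAN599, DONG237, DONG46, JI63, JI846, JI853, LIAO138, LIAO159, LIAO5114, LIAO5262 and SHEN5003, and the ZHENG lines were ZHENG28, ZHENG29, ZHENG30, ZHENG58 and ZHENG653.

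All lines were grown in the same field trial in Hainan and self-pollinated, with no treatment named in the labels, and whole kernels were taken at 5 days after pollination (DAP). Seeds from 3 field blocks were mixed before RNA preparation, so each line is 1 library and the line is the replicate. P-values therefore measure the spread between lines, and the variation between plants or blocks of 1 line was not measured. Polyadenylated RNA was sequenced, and transcript levels are in fragments per kilobase of gene, scaled between libraries by DESeq2 size factors (FPKM), compared as log2(FPKM + 1). Differences below are northeast-named minus ZHENG on that scale, which understates changes of genes with few reads.

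A maize kernel at this age is mostly maternal tissue, the nucellus and the pericarp, around a small embryo and a young endosperm that is only beginning to form its cell layers. Sugar from the mother plant is unloaded at the kernel base, where invertase splits it, and starch and storage proteins accumulate later. Inbred lines differ in transcript levels through regulatory variants and through genes that are present in some maize genomes and missing in others.

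The summed level of 3 carpel and ovule MADS-box genes, zag1, zag2 and bde1, was 288.2 to 854 FPKM in northeast-named lines and 510.0 to 753 FPKM in ZHENG lines. The summed level of 10 zeins, the storage proteins of the filling endosperm, was at most 1.48 FPKM in northeast-named lines and at most 0.624 FPKM in ZHENG lines. The 9 basal transfer layer genes summed to a median of 11.6 FPKM in northeast-named lines and 14.8 FPKM in ZHENG lines. Of the 9, 2 had a median above 1 FPKM in either group. Among the others, betl1 was at 0 in all 20 lines. The regulator of that layer, mrp1, had a median of 0.739 FPKM in northeast-named lines and 0.445 FPKM in ZHENG lines. Single lines departed from these medians, and mrp1 reached 20.2 FPKM in its highest northeast-named line, against 1.74 FPKM in its highest ZHENG line. The embryo genes lec1, vp1 and ole1 stayed at or below 0.502 FPKM in every line of both groups, while kn1, a meristem gene, had medians of 12.9 FPKM in northeast-named lines and 10.4 FPKM in ZHENG lines. The embryo surrounding region list (3 genes) summed to at most 5.57 FPKM in northeast-named lines and 0.702 FPKM in ZHENG lines. The aleurone list (4 genes) summed to 8.84 to 34.3 FPKM in northeast-named lines and 8.39 to 29.9 FPKM in ZHENG lines. Leaf photosynthesis genes (16) summed to 10.3 to 40.04 FPKM in northeast-named lines and 16.8 to 89.2 FPKM in ZHENG lines.

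Total counts ran between 8545071 and 17010242 in northeast-named lines and between 12391413 and 15449387 in ZHENG lines. Genes above 1 FPKM numbered 18521 to 21688 in northeast-named lines and 20604 to 21172 in ZHENG lines. No difference was detected in 4 library measures (total count, genes above 1 FPKM, share of counts in the 10 highest genes, and Pearson's r with the mean of the panel), with adjusted p = 0.760 for each by a 2-sided exact permutation test over 15504 assignments of the lines. Within the northeast-named lines, DAN599 and DAN3130 stood apart: their r with the panel mean was 0.416 and 0.569, against 0.715 to 0.892 in the other 13 northeast-named lines and 0.809 to 0.881 in ZHENG lines. DAN599 was the lowest northeast-named line for 14.9% of genes and the highest for 17.3%, and DAN3130 was the lowest for 16.5%. Likeness, the count of called genes, the shares of large differences and several list counts are given with and without them. Differences of single genes and the comparisons with the remaining lines are given with them only.

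The first question was whether lines that share a name prefix also share a kernel transcriptome. Lines of 1 group were not detectably more alike than lines of different groups. Over 21527 genes, the mean Pearson's r between pairs of lines was 0.822 within northeast-named lines, 0.845 within ZHENG lines (10 pairs) and 0.827 between the groups (75 pairs). The mean within-group r minus the mean between-group r was -0.0027 (exact permutation test, 2-sided p = 0.891). Without DAN599 and DAN3130 it was 0.0040 (exact permutation p = 0.560).

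**Figure D1:**
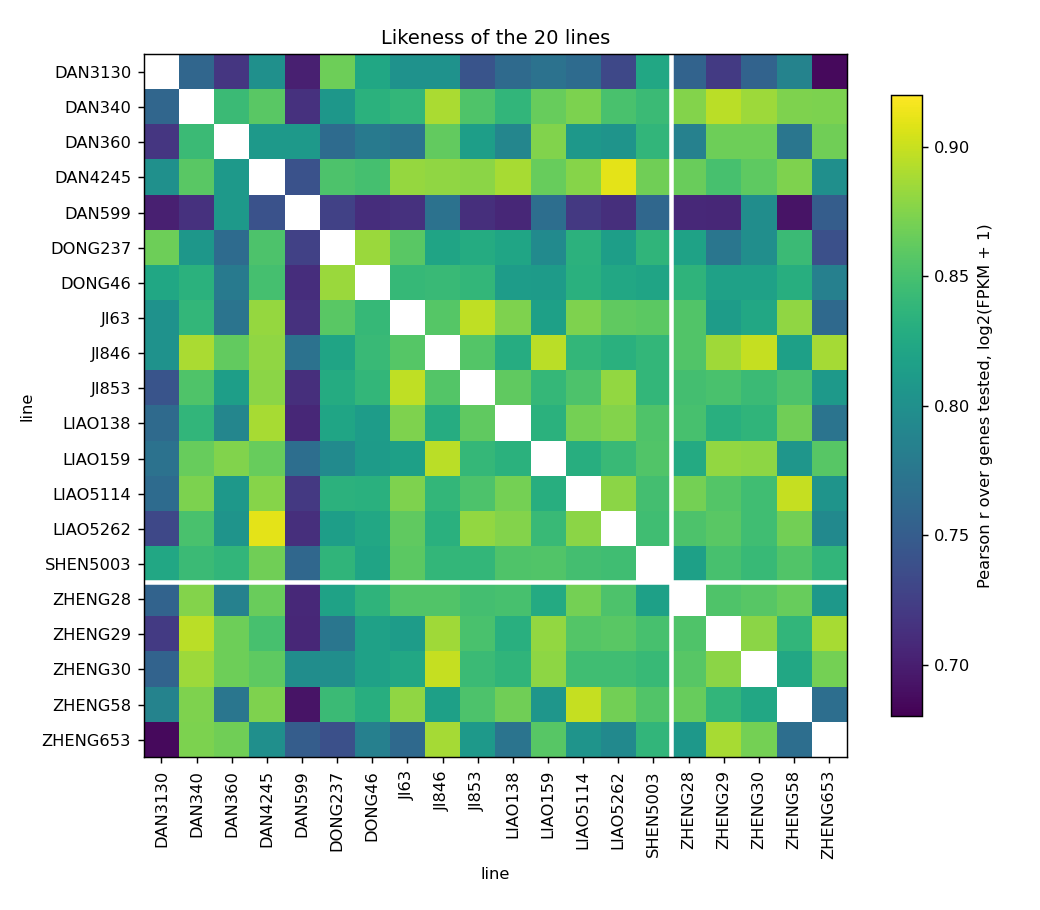
Likeness of each pair of the 20 lines, as Pearson's r across the tested genes; white lines part the 15 northeast-named lines (top, left) from the 5 ZHENG lines (bottom, right), and colour runs from dark (low r) to bright (high r). Dark rows mark DAN599 and DAN3130, and the mean r is 0.827 between the groups, 0.822 within northeast-named lines and 0.845 within ZHENG lines.

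The single closest pairs crossed prefixes and, in part, groups. The highest r among the 20 lines, 0.910, joined DAN4245 and LIAO5262, which carry different prefixes. For 12 of 15 northeast-named lines the closest of the 20 was another northeast-named line, but the exceptions were close to ZHENG lines: DAN340 to ZHENG29 (r = 0.895), JI846 to ZHENG30 (r = 0.899) and LIAO5114 to ZHENG58 (r = 0.899). Of the 5 ZHENG lines, ZHENG653 alone had a ZHENG line as its closest, ZHENG29 (r = 0.888). ZHENG58 and ZHENG653 were the least alike of the ZHENG lines (r = 0.767). Since 15 of the 20 lines are northeast-named, a northeast-named closest line is the more likely one by group size alone. The 2 counts of closest lines are therefore not comparable with each other, and neither was tested against group size.

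Among the northeast-named lines, likeness by prefix turned on DAN599 and DAN3130. Pairs that share a prefix had a mean r of 0.819 (20 pairs), and pairs with different prefixes 0.823 (85 pairs). The mean within the prefix was 0.884 for DONG lines, 0.870 for JI lines, 0.855 for LIAO lines and 0.775 for DAN lines, the set that holds DAN599 and DAN3130. Their mean r with other northeast-named lines was 0.817 for DONG, 0.834 for JI, 0.827 for LIAO and 0.811 for DAN lines. Without DAN599 and DAN3130, pairs that share a prefix had a mean r of 0.856 (13 pairs) and pairs with different prefixes 0.843 (65 pairs), so the order turned. The difference was not tested. The first principal component of the 20 lines held 20.5% of the variance and the second 14.2%.

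Some of the closest profiles lay outside both groups. ZHENG58 and the panel line named 177 had r = 0.994, far above any pair among the 20 lines, and their counts differed by a mean squared standardized difference of 2.99, where sampling noise alone gives about 1 and the closest pairs among the 20 lines gave 50.3 to 136.4. They differed by more than sampling noise and were kept as separate lines, 177 among the remaining lines. ZHENG29 had r = 0.962 with GEMS19. The closest remaining line of each northeast-named line had r between 0.891 and 0.922.

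Gene by gene, few differences exceeded the spread between lines. A gene was tested when its median was above 1 FPKM in either group: 19914 genes passed through both groups, 678 through the northeast-named lines alone and 935 through the ZHENG lines alone. A gene that passed through 1 group alone was admitted by the group in which it is high, so its p is not independent of the filter, and such genes are pointed out below. The median difference over all 21527 genes was -0.03. The median absolute difference was 0.24, against a median SD between lines of 0.52 within northeast-named lines and 0.43 within ZHENG lines. With limma and Benjamini-Hochberg adjustment, 1 gene (0.00465% of those tested) passed an adjusted p threshold of 0.05, and it was lower in northeast-named lines. At an unadjusted p below 0.05 there were 1862 genes (8.65%), of which 914 were higher (4.25%) and 948 lower (4.40%) in northeast-named lines. On the counts, edgeR called 0 genes (1644 at an unadjusted p below 0.05, 7.64%), and DESeq2 called 20 genes (0.0929%), 15 higher (0.0697%) and 5 lower (0.0232%) in northeast-named lines.

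**Figure D2:**
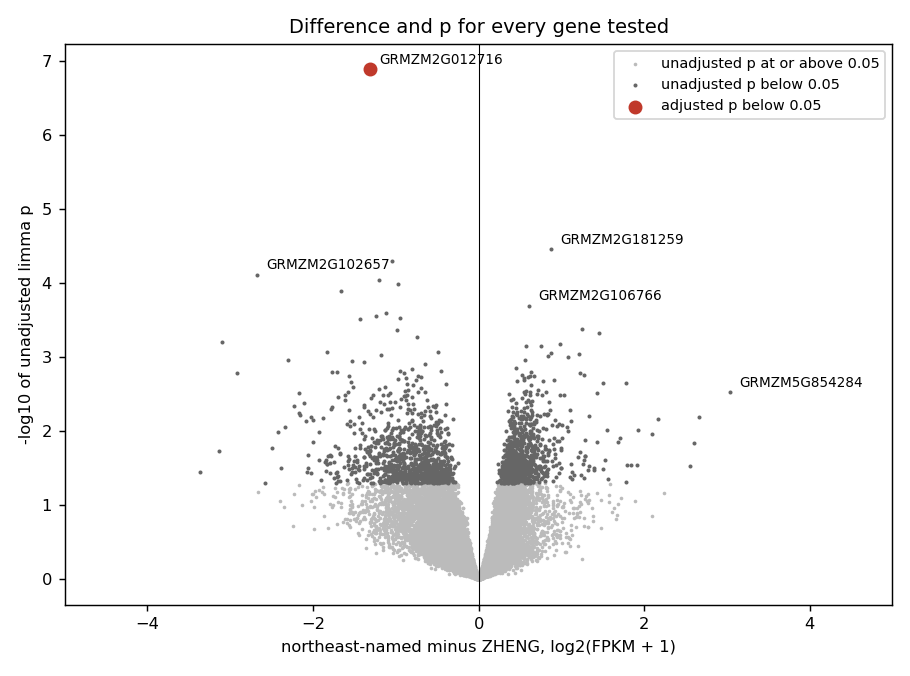
Each point is 1 of 21527 genes; the horizontal axis is the northeast-named minus ZHENG difference in log2(FPKM + 1), and the vertical axis is -log10 of the unadjusted limma p. The red point, GRMZM2G012716, is the 1 gene past the adjusted threshold, with a difference of -1.31.

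Large differences leaned one way. A difference below -1 was seen for 3.24% of genes and one above 1 for 0.599%. Without DAN599 and DAN3130 these shares were 2.30% and 0.697%. On the counts the lean was smaller, with 3.80% below -1 and 2.42% above 1 by edgeR and 3.99% and 2.14% by DESeq2. Among genes at an unadjusted p below 0.05 the lean was not seen with limma, where 49.1% were higher in northeast-named lines, and it turned with edgeR (60.9% higher) and DESeq2 (65.4% higher).

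The called gene, GRMZM2G012716, has no entry in the RefSeq gene table used here, and its product is not named. It was listed at 0 FPKM in 13 of 15 northeast-named lines, at 0.46 FPKM in LIAO5114 and at 1.06 FPKM in DAN340. In the ZHENG lines it was at 2.58, 1.70, 1.25, 1.53 and 1.47 FPKM in ZHENG28, ZHENG29, ZHENG30, ZHENG58 and ZHENG653. The groups did not overlap. The difference was -1.31 ± 0.17 (SE; limma, adjusted p = 0.0028; exact permutation p = 6.4e-05, the smallest that 15504 assignments can give). Its reads were few, 0 to 9 per northeast-named line and 10 to 21 per ZHENG line, and it entered the test only through the ZHENG lines (median 1.53 FPKM), the group in which it is high. Against the remaining lines, northeast-named lines differed by -0.10 (adjusted p = 0.83) and ZHENG lines by 1.21 (adjusted p = 9.3e-05), in limma over all 318 lines. Of the remaining lines, 79.5% were at 0 and 9.40% were above 1 FPKM. The call did not hold with edgeR (adjusted p = 0.65), DESeq2 (adjusted p = 0.44) or a pseudocount of 0.1 (adjusted p = 0.11), and the gene was not tested when the filter was set on the median over the 20 lines.

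**Figure D3:**
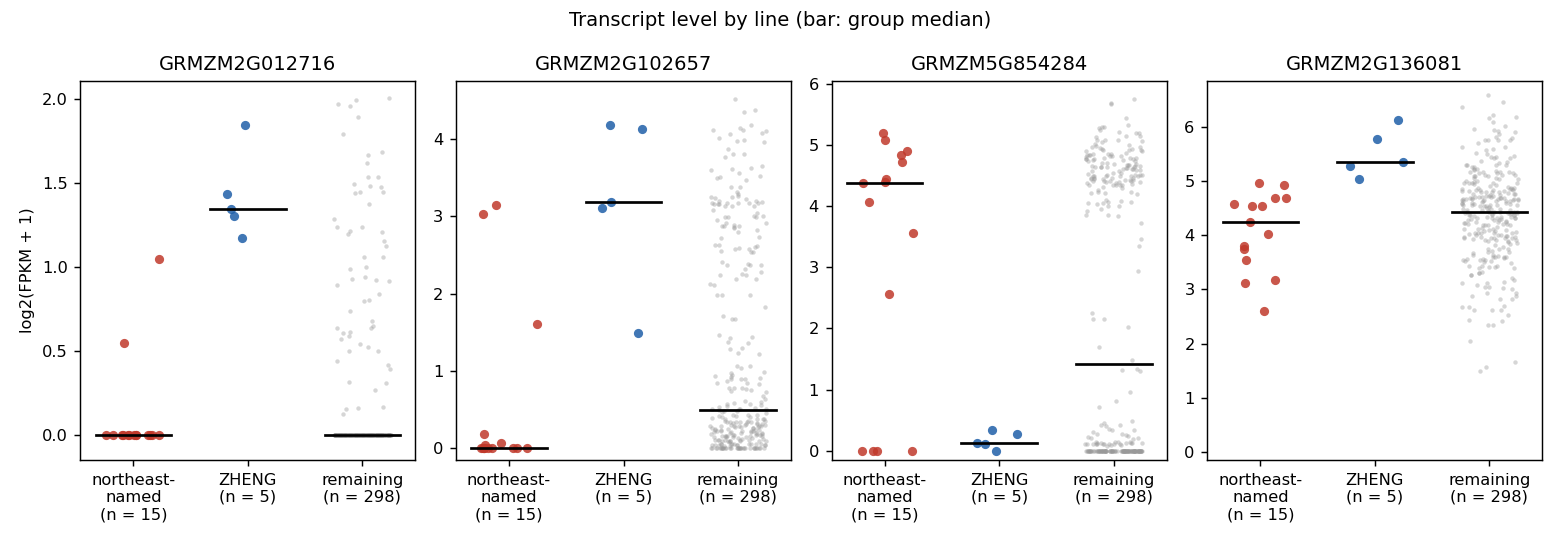
Level of 4 genes in log2(FPKM + 1): red points are the 15 northeast-named lines, blue points the 5 ZHENG lines and grey points the remaining lines, with bars at group medians. GRMZM2G012716 sits at 0 in 13 northeast-named lines, and GRMZM5G854284 splits northeast-named and remaining lines into lines near 0 and lines above it.

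In 8 genes (0.0372% of those tested) the lines of the groups did not overlap, GRMZM2G012716 among them. GRMZM2G106766 was the 1 gene higher in every northeast-named line (0.00465%), at 6.10, 7.53 and 11.3 FPKM (lowest, median, highest) against 5.51, 3.91, 5.53, 4.42 and 4.49 FPKM in the ZHENG lines. Its difference was 0.61 ± 0.14 (limma, adjusted p = 0.54). It passed DESeq2 (adjusted p = 0.012). Another 6 did not overlap and were lower in northeast-named lines, making 7 in all (0.0325%). GRMZM2G136081 was at 5.07, 17.9 and 30.1 FPKM in northeast-named lines, against 31.8 to 69.2 FPKM in ZHENG lines, a difference of -1.44 ± 0.33 (limma, adjusted p = 0.54). GRMZM2G036134 was at 0.194, 23.8 and 45.5 FPKM in northeast-named lines, against 48.4 to 117.6 FPKM in ZHENG lines. GRMZM2G558539 was at 38.2, 57.9 and 67.7 FPKM in northeast-named lines, against 70.95 to 89.9 FPKM in ZHENG lines. The other 3 were GRMZM2G018579, GRMZM2G386525 and GRMZM2G056231, with differences of -0.85, -0.31 and -1.13. None of these 7 has a name in the table.

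Several genes were read in some lines and nearly silent in others. GRMZM2G102657 is on the study's list of kernel length genes and had a difference of -2.68 ± 0.54 (limma, adjusted p = 0.37). It passed the filter through the ZHENG lines alone. It was listed at 0 in 9 northeast-named lines and above 1 FPKM in 3, DAN599 (2.05 FPKM), DAN340 (7.17 FPKM) and LIAO5114 (7.88 FPKM). The ZHENG lines were at 17.1, 8.14, 16.5, 1.81 and 7.61 FPKM in the order given above. DAN340 and LIAO5114, the northeast-named lines with reads of GRMZM2G012716, thus also had reads of GRMZM2G102657. The remaining lines covered the range from 0 to 22.02 FPKM.

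The opposite pattern was seen for GRMZM5G854284, which DESeq2 called first (log2 fold change 7.00 ± 1.27 SE, adjusted p = 0.00067), whereas limma gave 3.04 ± 0.90 with adjusted p = 0.57. It passed the filter through the northeast-named lines alone. It was above 1 FPKM in 11 of 15 northeast-named lines, with a median of 19.9 and a highest value of 35.8 FPKM, and at 0 in the other 4, DAN360, JI63, JI853 and SHEN5003. In ZHENG lines it was at most 0.265 FPKM, which was 3 reads. Of the remaining lines, 51.01% were above 1 FPKM and 34.6% were at 0, so both states were common in the panel. GRMZM5G869550 and GRMZM2G511318 were also above 1 FPKM in 11 of 15 northeast-named lines each, and at most 0.477 and 0.143 FPKM in ZHENG lines. GRMZM2G062683 was above 1 FPKM in 9 northeast-named lines and at most 0.0656 FPKM in ZHENG lines. All 3 were called by DESeq2 (adjusted p = 0.012, 0.0036 and 0.0010) and not by limma (adjusted p = 0.57 each), and all 3 passed the filter through the northeast-named lines alone.

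Of the 20 genes called by DESeq2, 10 were among the 10 genes of smallest limma p in each direction, 19 had an unadjusted limma p below 0.05, and 20 had the same sign in limma. GRMZM2G012716 was not among them. Of the 20, 11 passed the filter through both groups, 7 through the northeast-named lines alone and 2 through the ZHENG lines alone. Of the 20, 3 have a gene name. GRMZM5G826194 (dhar4), a dehydroascorbate reductase of the ascorbate cycle, was at 0.772, 5.19 and 8.28 FPKM in northeast-named lines, against 0.749 to 1.93 FPKM in ZHENG lines (DESeq2, adjusted p = 0.012; limma, difference 1.22 ± 0.32). GRMZM2G011932 (GBF1), named for a G-box binding factor, was at 5.11, 10.6 and 19.4 FPKM in northeast-named lines, against 2.80 to 7.32 FPKM in ZHENG lines (DESeq2, adjusted p = 0.046; limma, difference 0.99 ± 0.25). GRMZM2G306345 (pdk1), pyruvate orthophosphate dikinase, was at 0.146, 1.83 and 17.1 FPKM in northeast-named lines, against 0.161 to 0.630 FPKM in ZHENG lines (DESeq2, adjusted p = 0.025; limma, difference 1.503 ± 0.66), and passed the filter through the northeast-named lines alone. All 3 ranges overlap.

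Gene lists were then read by their counts, since no listed gene passed the adjusted threshold. The p of each member named below is unadjusted and from limma. Over all genes, 4.25% were higher and 4.40% lower at such a p below 0.05, the shares beside which each count stands. For members with p below 0.05 the adjusted p was 0.57, other than GRMZM2G102657 above. Members of a list were measured in the same 20 libraries and are not independent of each other. Counts of members with a difference below 0 have no share of all genes beside them. Such a lean was not particular to the lists described as lower below. All 9 leaf photosynthesis genes tested and 19 of 26 MADS-box genes were also below 0. Other lists leaned the other way, with 6 of 7 cellulose synthases and 6 of 9 benzoxazinoid genes above 0.

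**Figure D4:**
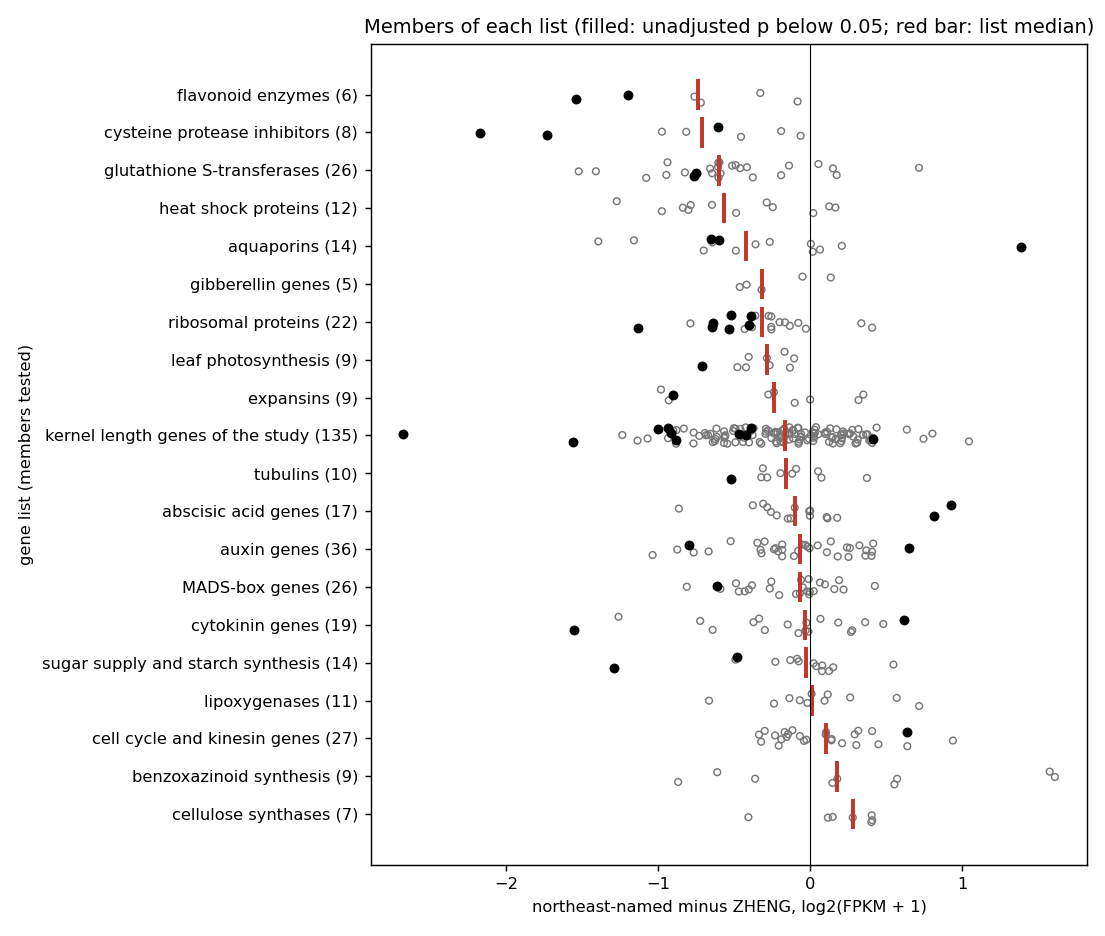
Northeast-named minus ZHENG difference in log2(FPKM + 1) for each tested member of the lists with at least 5 tested members; filled points have an unadjusted limma p below 0.05, red bars are list medians, and the number tested stands in brackets. The medians run from -0.74 for flavonoid enzymes to 0.28 for cellulose synthases.

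Genes of the flavonoid pathway, which makes the pigments of kernel and pericarp, lay on the lower side in northeast-named lines. All 6 enzymes tested had a difference below 0, with a list median of -0.74 beside -0.03 over all genes, and 2 of 6 had p below 0.05 and were lower, where 4.40% of all genes were. That count was 1 of 6 with edgeR and with DESeq2. With the filter on the median over the 20 lines, which does not use the groups, 4 enzymes were tested and 1 had p below 0.05. Chalcone synthase c2 (GRMZM2G422750), the first step of the pathway, was at 0.249, 0.818 and 8.63 FPKM in northeast-named lines, against 10.49, 6.08, 7.79, 0.451 and 6.44 FPKM in the ZHENG lines in the order given above, a difference of -1.54 ± 0.44. It passed the filter through the ZHENG lines alone. ZHENG58 was low and DAN599 was the highest of the northeast-named lines, so the groups overlapped through 1 line of each. Dihydroflavonol reductase a1 (GRMZM2G026930) was at 1.22, 5.13 and 42.1 FPKM in northeast-named lines, against 8.07 to 27.3 FPKM in ZHENG lines (difference -1.20 ± 0.48, p = 0.020). Chalcone isomerase chi1 had a difference of -0.72 ± 0.66, bz2, a glutathione S-transferase that takes pigment to the vacuole, -0.76 ± 0.45, and bz1, a glucosyltransferase, -0.33 ± 0.44. Flavanone hydroxylase fht1 was near 0 (-0.083 ± 0.54) and also passed through the ZHENG lines alone. Without DAN599 and DAN3130, 5 of 6 were below 0 with a median of -0.48. The 4 flavonoid regulators listed did not reach the filter, and their sum was at most 1.63 FPKM in northeast-named lines and 0.839 FPKM in ZHENG lines.

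Inhibitors of cysteine proteases, the cystatins, had a list median of -0.71. All 8 tested had differences below 0 and 3 of 8 had p below 0.05 and were lower, where 4.40% of all genes were. Cystatin6 (GRMZM2G401328) was at 0.221, 5.12 and 33.02 FPKM in northeast-named lines, against 14.9, 25.6, 38.5, 7.58 and 110.8 FPKM in the ZHENG lines in the same order, a difference of -2.17 ± 0.70 (p = 0.0057). Psei10 (GRMZM2G030717) was at 0.133, 14.4 and 39.7 FPKM in northeast-named lines, against 11.7 to 117.8 FPKM in ZHENG lines (difference -1.73 ± 0.66, p = 0.016). Cystatin4 (GRMZM2G013461), the most abundant of the 3, was at 76.6, 176.7 and 323 FPKM in northeast-named lines, against 164.03 to 328 FPKM in ZHENG lines (difference -0.61 ± 0.24, p = 0.021). Without DAN599 and DAN3130 the count stayed at 3 of 8 with a median of -0.57. Without ZHENG653, the line with the highest cystatin6, it was 1 of 8 with a median of -0.69.

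Ribosomal protein genes had a list median of -0.32, with 20 of 22 below 0 and 7 of 22 (31.8%) at p below 0.05 and lower, where 4.40% of all genes were. The largest difference among these was that of rps28 (GRMZM2G030293), at 8.84, 49.7 and 170.7 FPKM in northeast-named lines, against 76.2 to 117.5 FPKM in ZHENG lines (difference -1.13 ± 0.50, p = 0.034). The acidic ribosomal protein rpp3 (GRMZM2G077208) was at 90.2, 167.8 and 246.7 FPKM in northeast-named lines, against 192.1 to 312 FPKM in ZHENG lines (difference -0.64 ± 0.21, p = 0.0053). The others included rpl29 (-0.64), rpl35A (-0.54), rpl32 (-0.52) and arpp40 (-0.40). The gene table gives the rpl35A gene a second name, stc1, so its place on this list is not certain, and it is counted among the 7. The count was 7 of 22 without DAN599 and DAN3130, 4 of 22 with edgeR and 6 of 22 with DESeq2, where 1 was higher. It was 2 of 22 without ZHENG29 and 5 of 22 without ZHENG653. In the same order, the lower genes among all 21527 numbered 884, 642, 703, 579 and 605, against 948 in the main fit.

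In sugar supply and starch synthesis, 7 of 14 genes were above 0 and 7 below, with a median of -0.03. The cell wall invertase mn1 (GRMZM2G119689), which cleaves sucrose at the kernel base, was at 1.97, 30.5 and 104.7 FPKM in northeast-named lines, against 35.1, 111.03, 45.9, 106.1 and 115.7 FPKM in the ZHENG lines in the same order, a difference of -1.29 ± 0.57 (p = 0.034). Every ZHENG line was above the northeast-named median, and DAN599 was the lowest of the 20. The ADP-glucose pyrophosphorylase subunit sh2 (GRMZM2G429899) was scarce, at 0.235, 0.578 and 1.35 FPKM in northeast-named lines, against 0.718 to 2.00 FPKM in ZHENG lines (difference -0.48 ± 0.16), and passed the filter through the ZHENG lines alone. The sucrose synthases sh1 and sus1 had differences of -0.09 ± 0.43 and -0.13 ± 0.28, and the soluble invertase ivr2 0.08 ± 0.42.

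**Figure D5:**
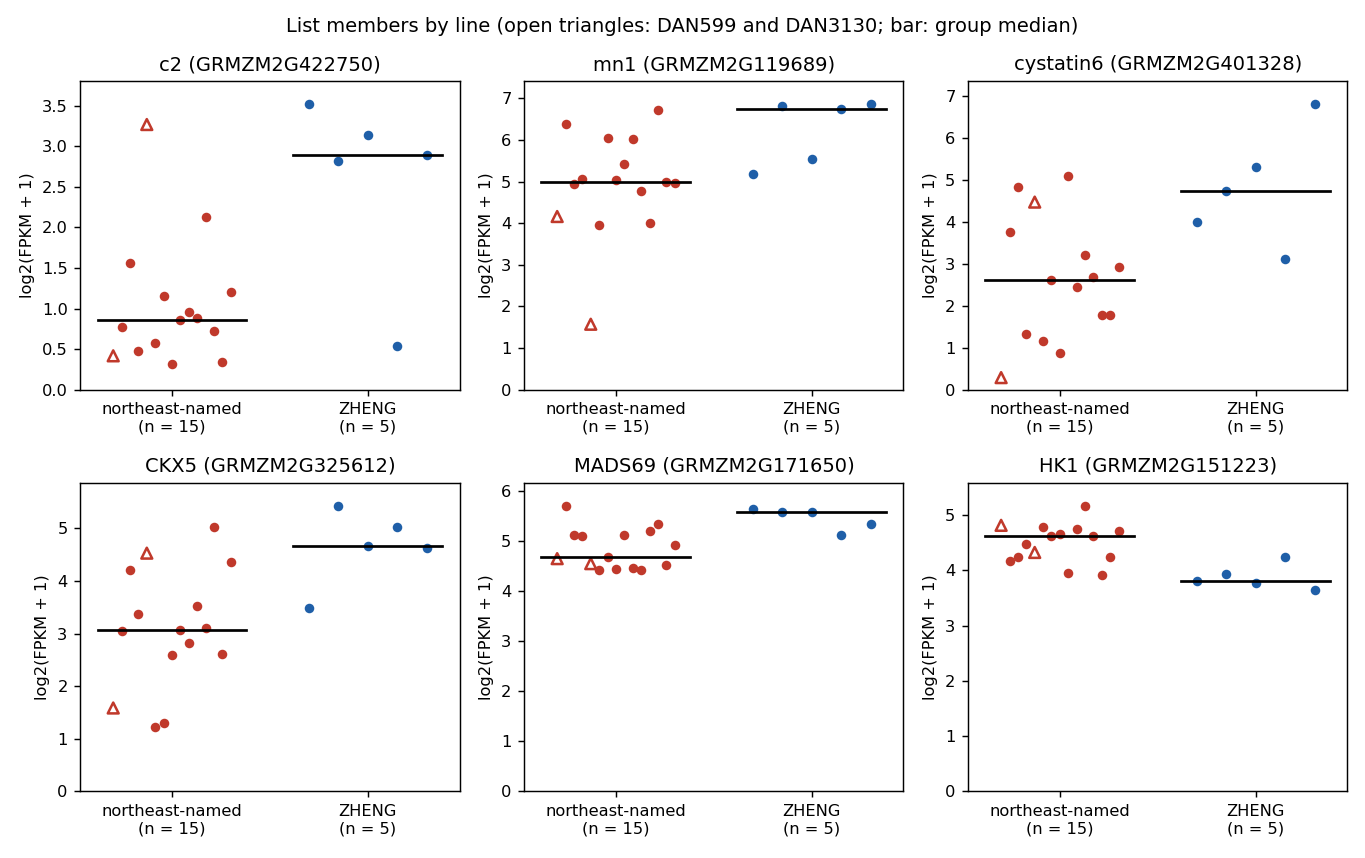
Level of 6 list members in log2(FPKM + 1) by line, for the 15 northeast-named lines (red) and the 5 ZHENG lines (blue); open triangles are DAN599 and DAN3130, and bars are group medians. For c2, mn1, cystatin6, CKX5 and MADS69 the bar is lower in northeast-named lines, for HK1 it is higher, and the points of the groups overlap in every panel.

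Hormone genes lay on both sides of 0. Among 19 cytokinin genes, 1 was higher and 1 lower at p below 0.05 (5.26% each), where 4.25% and 4.40% of all genes were. HK1 (GRMZM2G151223), a cytokinin receptor kinase, was at 14.1, 23.5 and 35.03 FPKM in northeast-named lines, against 11.5 to 17.9 FPKM in ZHENG lines (difference 0.62 ± 0.17, p = 0.0018). CKX5 (GRMZM2G325612), an oxidase that breaks cytokinin down, was at 1.35, 7.38 and 31.6 FPKM in northeast-named lines, against 10.2 to 42.2 FPKM in ZHENG lines (difference -1.55 ± 0.52, p = 0.0072). Of 36 auxin genes, ARF18 was higher (0.65 ± 0.31) and AUX3 lower (-0.80 ± 0.31), each 2.78% of the list. Of 17 genes put on the abscisic acid list by symbol alone, SnRK2.1 (0.81 ± 0.28) and ABI14 (0.93 ± 0.37) were higher (11.8%). Of 5 gibberellin genes tested, 0 had p below 0.05.

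Of 27 cell cycle and kinesin genes, 1 had p below 0.05 and was higher, RBR2 (GRMZM2G153150), a retinoblastoma-related protein. The count was 5 of 27 without ZHENG58, 4 with DESeq2, and 2 without DAN599 and DAN3130. Over all 21527 genes, those higher at p below 0.05 numbered 1560, 1331 and 813 in the same order, against 914 in the main fit. RBR2 was at 2.86, 5.42 and 7.18 FPKM in northeast-named lines, against 1.79 to 3.74 FPKM in ZHENG lines (difference 0.64 ± 0.18, p = 0.0016). Its paralog rbr1 had a difference of 0.29 ± 0.17 and rbr3 -0.12 ± 0.24. All 3 clock genes had a difference above 0, with gigz1b (GRMZM5G844173), a GIGANTEA gene, at 4.18, 19.6 and 35.5 FPKM in northeast-named lines, against 7.80 to 11.9 FPKM in ZHENG lines (difference 0.91 ± 0.33, p = 0.012). Its paralog gi had a difference of 0.50 ± 0.28. Time of day at harvest is not given in the labels, and its part in these values was not tested.

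Of 26 MADS-box genes, 1 had p below 0.05 and was lower (3.85%), where 4.40% of all genes were. MADS69 (GRMZM2G171650), known as a flowering regulator in maize, was at 20.4, 24.5 and 51.2 FPKM in northeast-named lines, against 48.7, 46.9, 47.1, 33.9 and 39.7 FPKM in the ZHENG lines in the same order (difference -0.61 ± 0.19, p = 0.0047). The ovule genes zag1 (-0.06 ± 0.19), bde1 (-0.0022 ± 0.25) and zag2 (-0.38 ± 0.27) had no p below 0.05.

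The glutathione S-transferases, detoxifying enzymes, had a median of -0.60 with 22 of 26 below 0. At p below 0.05, 2 of 26 (7.69%) were lower, gst16 (-0.75 ± 0.29) and GST26 (-0.76 ± 0.29). The 12 heat shock proteins had a median of -0.57 and none at p below 0.05, and without ZHENG653 their median was 0.30. Of 14 aquaporins, the water channels, TIP4-1 was higher (1.39 ± 0.61), 7.14% of the list. PIP2-2 (-0.65 ± 0.27) and PIP1-3 (-0.60 ± 0.29) were lower, 14.3% of the list. Expansins (expa2, -0.90 ± 0.38), tubulins (tua6, -0.52 ± 0.24) and leaf photosynthesis genes (lhcb6, -0.71 ± 0.26) had 1 gene each at p below 0.05, and all were lower. In the same order these were 11.1%, 10% and 11.1% of their lists. The benzoxazinoid, lipoxygenase and cellulose synthase lists had 0 genes at p below 0.05. When DAN599 and DAN3130 were left out, 2 of 7 cellulose synthases were higher and 1 lower at p below 0.05, 1 of 9 benzoxazinoid genes was higher, and the 11 lipoxygenases still had 0. Without ZHENG58 the counts were 2 of 7 cellulose synthases, both higher, and 1 higher and 1 lower of 9 benzoxazinoid genes. Over all genes, 1560 were higher and 1267 lower without ZHENG58, against 914 and 948 with it.

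The study's own list of kernel length genes, which was chosen on lines of this panel and so is not independent of these samples, had all but 2 of its members tested. Its median difference was -0.16, and 9 (6.67%) were lower and 1 (0.741%) higher at p below 0.05, where 4.40% and 4.25% of all genes were. Without DAN599 and DAN3130 the counts were 5 lower and 3 higher. Besides GRMZM2G102657, the lower members included HB45 (GRMZM2G126808), a homeobox gene, at 3.19, 10.2 and 34.7 FPKM in northeast-named lines, against 14.1 to 40.6 FPKM in ZHENG lines (difference -1.004 ± 0.45, p = 0.039). The 1 higher member was GRMZM2G551402 (0.42 ± 0.16, p = 0.015).

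Setting each group against the remaining lines showed on which side a gene lay. Both comparisons share the remaining lines as their control, and they were not repeated without DAN599 and DAN3130. Northeast-named lines had 24 genes past the adjusted threshold (0.111% of those tested), 17 higher (0.0790%) and 7 lower (0.0325%), and ZHENG lines had 22 (0.102%), 11 higher (0.0511%) and 11 lower (0.0511%). Of these, 7 of the 24 passed the filter through the northeast-named lines alone and none through the ZHENG lines alone, and of the 22, 8 passed through the ZHENG lines alone and 2 through the northeast-named lines alone. GRMZM2G085038, which passed through the northeast-named lines alone, was on both lists: it was at 0 in 3 of 15 northeast-named lines and in 3 of 5 ZHENG lines, with medians of 17.8 FPKM in northeast-named lines and 0 FPKM in ZHENG lines, against 28.5 FPKM in the remaining lines.

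For northeast-named against remaining lines, GRMZM2G128771 had the smallest p (difference 1.99, limma, adjusted p = 4.7e-07). Its median was 10.4 FPKM in northeast-named lines, against 0.485 FPKM in the remaining lines. Of 15 northeast-named lines, 12 were above the median of the remaining lines. ZHENG lines were at 2.22, 12.5, 0.548, 9.04 and 5.70 FPKM, a difference of 1.45 from the remaining lines (limma, adjusted p = 0.36). No difference between northeast-named and ZHENG lines was detected (difference 0.55 ± 0.72, limma, adjusted p = 0.80). Of the 24 genes, 1 has a name, ANT2 (GRMZM2G135186), a mitochondrial adenine nucleotide carrier. It had a lowest value of 8.79 FPKM and a median of 150.3 FPKM in northeast-named lines. In the remaining lines the lowest value was 97.1 FPKM and the median 181.8 FPKM. That median was exceeded by 6 of 15 northeast-named lines, and the highest of them was at 282.2 FPKM.

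For the ZHENG lines, GRMZM2G330575 had the smallest p (difference 0.90; limma, adjusted p = 1.1e-06). It passed the filter through the ZHENG lines alone, at 1.92, 1.77 and 2.37 FPKM in ZHENG28, ZHENG29 and ZHENG58 and at 0 in the other 2 ZHENG lines. It was at 0 in all 15 northeast-named lines and in 96.6% of the remaining lines. Its northeast-named minus ZHENG p was 0.00029, or 0.54 after adjustment, in limma on the 20 lines. With the spread taken from all 318 lines, 5 genes (0.0232%) were called between northeast-named and ZHENG lines: GRMZM2G330575, GRMZM2G012716 and GRMZM2G431412 were lower (0.0139%), and GRMZM2G440925 and GRMZM2G465333 were higher (0.00929%) in northeast-named lines. The 3 lower genes passed the filter through the ZHENG lines alone, GRMZM2G440925 through the northeast-named lines alone and GRMZM2G465333 through both. GRMZM2G440925 was at 0.374, 4.85 and 8.497 FPKM in northeast-named lines, against 0.272, 0.215, 2.45, 3.18 and 0.278 FPKM in the ZHENG lines. GRMZM2G465333 was at 111.6, 173.03 and 264.9 FPKM in northeast-named lines, against 0.651 FPKM in ZHENG28, 8.70 FPKM in ZHENG30 and 144.3 to 217.2 FPKM in the other 3 ZHENG lines, which lie within the northeast-named range.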

How the data were processed

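Per the labels and the study's methods, 125 bp paired-end reads were aligned with TopHat2 to B73 RefGen_v3, uniquely mapped reads were counted per gene, and the authors deposited a table of raw counts and a table of FPKM from DESeq2 for 39625 genes in 318 lines. Reads were treated as unstranded, so overlapping and antisense genes cannot be told apart, and near-identical copies lose reads. Values enter as log2(FPKM + 1). Genes with a median above 1 FPKM in either group were tested with limma 3.58.1 (trend, robust) in R 4.3.3 with Benjamini-Hochberg adjustment. The counts were tested with edgeR 4.0.16 and DESeq2 1.42.0 as alternatives. On data simulated for this comparison (20862 genes), limma recovered 15, 31, 42 and 47 of 50 genes changed 2-, 4-, 8- and 16-fold, with 9 false calls. The changed genes were drawn only from genes above a minimum mean count. Genes with as few reads as GRMZM2G012716 were not among them, and genes read in some lines but silent in others were not modeled. Recovery was not measured for such genes.

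Gene names come from the RefSeq table of Zm-B73-REFERENCE-NAM-5.0, a later assembly used for names only: 19060 gene IDs matched and 2841 have a name. That table holds no descriptions, so lists were made by symbol, and several lists planned by description were left out. The members and lists were chosen with earlier results of these data known. The rule for named genes took every called gene, up to 10 in each direction, and gave 1. Genes of smallest p, without overlap, called by another fit or on a list at an unadjusted p below 0.05 were named after their values were seen. Kernel length genes were read from the study's supplement as identifiers only. A member of the ribosomal protein list is counted with its list and not reported by itself here.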

Additional observations from a re-analysis of the deposited data

Results flagged for a closer look

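In 82 sets of 5 ZHENG values (78 named genes and 4 library measures), 6 held 1 line far from the other 4 by Dixon's ratio. Genes were taken as log2(FPKM + 1). Chance flags about 1 in 20 such sets where values are normally distributed, which does not hold for sets with values tied at 0. ZHENG58 was low for c2 (GRMZM2G422750), at 0.451 FPKM, and for rpl32 (GRMZM2G110328), at 52.8 FPKM. ZHENG653 was low for RBR2 (GRMZM2G153150), at 1.79 FPKM, and ZHENG30 for GRMZM2G131853, at 6.61 FPKM. For GRMZM2G511318 and GRMZM5G869550, 1 ZHENG line had reads and the other 4 were at 0, so the ratio was 1.0 whatever the level. ZHENG653 had 0.143 FPKM of the former, which was 1 read, and ZHENG30 had 0.477 FPKM of the latter, which was 3 reads.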

How the results depend on the processing

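The count of 1 called gene was 1 under TMM scaling, with no filter on low values, without JI846 and LIAO138, which the study's mapping statistics do not list, without DAN599 and DAN3130, and with r with the panel mean as covariate, each time GRMZM2G012716. It was 0 with edgeR, with a pseudocount of 0.1, with the filter on the median over the 20 lines and with DAN lines alone, 5 with all 318 lines in 1 fit, 6 with LIAO lines alone, 11 with JI lines alone and 20 with DESeq2. GRMZM2G012716 was among the 5 but not among the calls with LIAO lines, JI lines or DESeq2. Leaving out 1 line at a time gave 1 to 2 called genes, the second being GRMZM2G083975 without SHEN5003 (adjusted p = 0.039, limma), and GRMZM2G012716 kept an adjusted p between 3.2e-05 and 0.028. Genes at an unadjusted p below 0.05 numbered 1101 with DAN lines alone and 1104 to 2827 when 1 line was left out, with 1113 without ZHENG29, 2827 without ZHENG58 and 1104 without ZHENG653. The cause was not tested. Direction turned for GRMZM2G132531 with LIAO lines alone (0.0033), for ARF18 (GRMZM2G035405) with JI lines alone (-0.11), for GRMZM2G328893 with DAN lines alone (0.029), for the difference in total count without ZHENG29 (152214, in a range from -612279 to 152214 when 1 ZHENG line was left out) and for likeness within and between groups without DAN599 and DAN3130 (0.0040), an alternative added after seeing the data. Of 2562 other fits of 78 named genes, 3 turned direction. The genes were named on these data and many of the fits share most lines, so a kept direction is no independent check.

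No paired analysis was possible because the labels give no replicate numbers and each line is 1 library. With 5 ZHENG lines the median SE of a difference was 0.26. Lists were compared by counts alone, so no list is shown to differ from other genes. The counts of list members under other filters and without single lines, and the likeness by prefix without DAN599 and DAN3130, were chosen after seeing the data.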
